A study of Harpegnathos saltator with 14 samples.

Results

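The genes described here are 33 of the 20755 gene models measured in the ponerine ant Harpegnathos saltator. They were chosen by their levels, on the log2(RPKM + 1) scale, where RPKM is a read number adjusted for the length of the gene and the size of the library. A gene carrying an HSALG identifier was taken when the lowest of its 4 instar 1 larva and adult worker libraries lay at least 2 log2 units above the highest of its 4 embryo and late pupa libraries. That gave 45 genes. A gene was then dropped when both libraries of instar 1 larvae, instar 4 larvae, workers or males lay at least 1 log2 unit above every library outside that group and early pupae. This clause removed 7 genes through workers, 3 through instar 1 larvae, 2 through instar 4 larvae and 0 through males. The high levels in instar 1 larvae and workers, and the low levels in embryos and late pupae, are therefore how the genes were found and are given below as description without a test.

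The study followed development from egg to adult by sequencing whole-body poly(A) RNA. There were 14 libraries in 7 groups of 2, which were embryos, instar 1 larvae, instar 4 larvae, early pupae, late pupae, males and adult workers. All ants were kept at 25 °C and 50% humidity under a 12-hour light cycle with live crickets as food, and no group carried a genetic change or a treatment in the labels. The strain, the age within a stage, the age of the males and the number of animals per library were not stated in the labels. Nor did they say which animals or colonies gave each replicate, so a p-value here reflects the spread among these libraries alone, and that spread may be technical.

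An ant embryo lives on yolk inside the egg, and the larva that hatches is fed by adults. Harpegnathos workers hunt live prey and bring it to the nest, where larvae and adults eat it. The larva stops feeding before metamorphosis, and the pupa takes no food while the larval gut is broken down and the adult gut is built. Genes of digestion and nutrient uptake in insects are used mainly in the gut, so their RNA is often abundant in stages that feed. None of this could be checked here by gene name. The identifiers matched 0 of the 14329 genes in the reference table, so marker lists of gut, fat body, cuticle, muscle, nerve and germline could not be counted. The genes are therefore called members, or by the groups in which the rule required high levels, and no member is given a role. In whole bodies, fewer cells of a type and less RNA per cell cannot be told apart.

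Reads in genes numbered between 4255302 in male replicate 2 and 14139959 in late pupa replicate 2. Genes at 1 RPKM or more numbered 8860 to 11133 per library. The 10 most abundant genes of a library held between 7.3% and 61.5% of its gene reads. This share was 60.5% and 61.5% in the instar 4 larva libraries and 58.8% in early pupa replicate 2, against 14.1% in early pupa replicate 1. Early pupa replicate 2 therefore stood apart from its partner. Limma calls and median differences of early pupae are given with and without each library, and other counts by early pupa mean join both. All 33 genes reached 1 RPKM in 2 or more libraries and were among the 12421 genes tested.

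The 33 genes were abundant as a group in the libraries that chose them. They held 6.04% and 4.45% of gene reads in the instar 1 larva libraries and 4.91% and 4.69% in the worker libraries. They held 0.0672% and 0.293% in embryos and 0.107% and 0.0318% in late pupae. In the libraries outside the gap of 2, the share was 2.43% and 2.39% in instar 4 larvae, 1.99% and 0.778% in males, and 0.0688% and 0.434% in early pupae. Instar 4 larvae and males thus lay between the high and the low groups, and no early pupa library reached them.

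**Figure D1:**
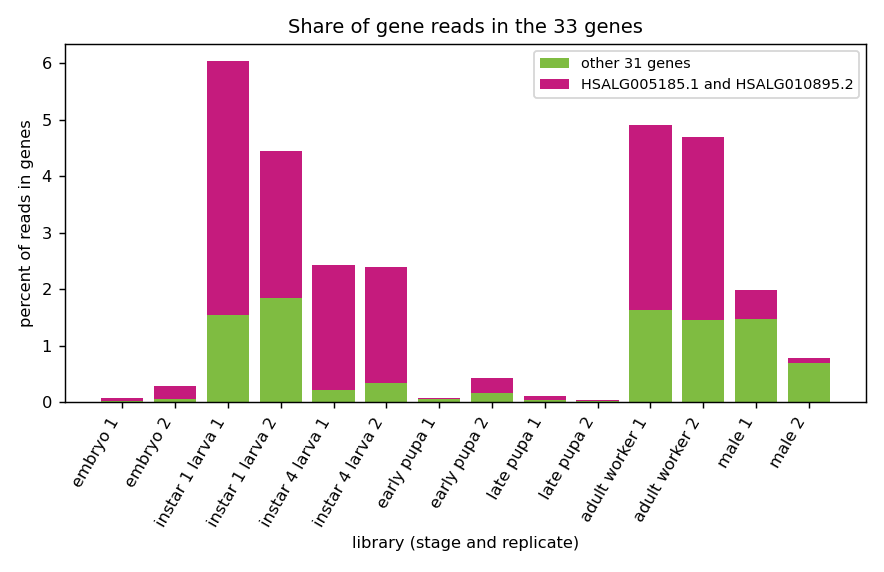
Percent of gene reads held by the 33 genes in each library, with HSALG005185.1 and HSALG010895.2 in one colour and the other genes in another. The bars reached 6.04% in instar 1 larvae and 4.91% in workers, and the male bars consisted mostly of the other genes.

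HSALG005185.1 and HSALG010895.2 carried most of these reads. They made up 74.5% and 58.8% of member reads in instar 1 larvae, 66.6% and 68.9% in workers and 91.1% and 85.8% in instar 4 larvae. In males they made up 25.8% and 9.98%. With both genes left out, the remaining members held 0.216% and 0.338% of gene reads in instar 4 larvae and 1.47% and 0.7% in males. The order of these groups thus turned once the pair was left out, with both male libraries above both instar 4 libraries. The remaining members held 1.54% and 1.84% in instar 1 larvae and 1.64% and 1.46% in workers, and the male share of 1.47% lay just above the lower of the worker values.

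The typical member showed the same layering of stages. The median member level was 64.0 and 70.2 RPKM in instar 1 larvae and 88.5 and 94.4 RPKM in workers. It was 24.2 and 32.2 RPKM in instar 4 larvae and 39.2 and 26.5 RPKM in males. The lowest medians were 0.601 and 3.24 RPKM in embryos, 2.80 and 1.28 RPKM in late pupae and 1.74 RPKM in early pupa replicate 1. Early pupa replicate 2 stood higher, at 13.5 RPKM. The highest group mean of a gene fell in workers for 15 genes, in instar 1 larvae for 11, in males for 5 and in instar 4 larvae for 2. The lowest fell in late pupae for 17 genes, in embryos for 13, in early pupae for 2 and in instar 4 larvae for 1.

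**Figure D2:**
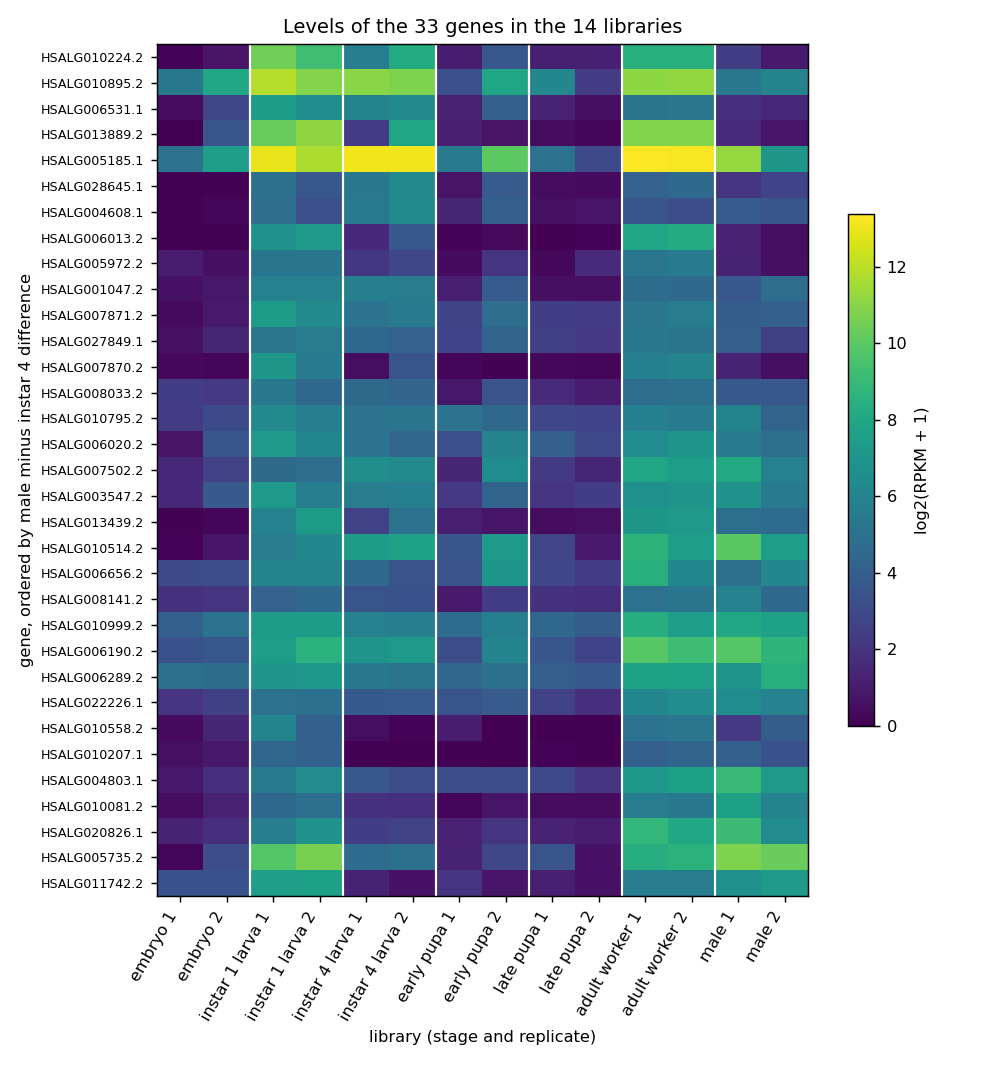
Level of each of the 33 genes (rows) in each of the 14 libraries (columns), as log2(RPKM + 1), with genes ordered by the difference between males and instar 4 larvae. Instar 1 larva and worker columns are bright in every row by the choice of genes, while the instar 4 larva, early pupa and male columns differ from row to row.

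The 4 most abundant members in instar 1 larvae and workers differed from each other outside those groups. HSALG005185.1 stood at 7835 and 3361 RPKM in instar 1 larvae and 10605 and 9778 RPKM in workers, against 30.4 and 172 RPKM in embryos and 31 and 6.81 RPKM in late pupae. In the remaining groups it read 8677 and 8602 RPKM in instar 4 larvae, 42.3 and 1035 RPKM in early pupae and 2476 and 135 RPKM in males. Both instar 4 libraries lay above both instar 1 libraries, and the male libraries lay far apart from each other. HSALG010895.2 stood at 3756 and 1894 RPKM in instar 1 larvae, 2217 and 2323 RPKM in workers and 2022 and 1752 RPKM in instar 4 larvae. It read 39.2 and 63.0 RPKM in males, 8.66 and 236 RPKM in early pupae, 41.6 and 259 RPKM in embryos and 71.3 and 4.21 RPKM in late pupae. Its male values lay inside the range spanned by embryos and late pupae.

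HSALG013889.2 was a gene with a different larval course. It stood at 1220.3 and 2315 RPKM in instar 1 larvae and 1846 and 1827 RPKM in workers. In instar 4 larvae the libraries read 4.28 and 233 RPKM, in males 2.12 and 0.682 RPKM and in early pupae 1.29 and 0.626 RPKM. Embryos read 0 and 10.2 RPKM and late pupae 0.341 and 0.155 RPKM. Outside the 4 libraries that chose it, only instar 4 larva replicate 2 held the gene above the highest embryo value. HSALG005735.2 stood at 884 and 1594 RPKM in instar 1 larvae, 325 and 392.1 RPKM in workers and 1742 and 1279.9 RPKM in males. It read 24.2 and 29.3 RPKM in instar 4 larvae, 1.5 and 6.11 RPKM in early pupae, 0.170 and 8.02 RPKM in embryos and 10.1 and 0.567 RPKM in late pupae. Both male libraries lay above both worker libraries, and both instar 4 libraries lay far below every instar 1, worker and male library.

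The gap that chose the genes, from the highest embryo or late pupa library to the lowest instar 1 larva or worker library, ran from 2.01 to 7.26 on the log2 scale with a median of 2.80. It was at least 3 for 14 members and at least 5 for 5 members. The widest gaps belonged to HSALG010224.2, at 7.26, and HSALG013889.2, at 6.77. HSALG010224.2 read 1443 and 624 RPKM in instar 1 larvae and 351 and 348 RPKM in workers, against 0.1 and 0.644 RPKM in embryos and 1.23 and 1.28 RPKM in late pupae. Its remaining libraries read 52.4 and 296 RPKM in instar 4 larvae, 1.01 and 11.4 RPKM in early pupae and 4.45 and 0.981 RPKM in males. Between group means, instar 1 larvae exceeded embryos by 2.26 to 9.46 log2 units with a median of 4.44. Workers exceeded late pupae by 2.73 to 10.53 with a median of 4.70.

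The threshold cut through a continuous range. HSALG003547.2, just inside with a gap of 2.01, read 144 and 51.6 RPKM in instar 1 larvae, 104 and 120.4 RPKM in workers, 1.76 and 12.1 RPKM in embryos and 2.97 and 4.35 RPKM in late pupae. HSALG008033.2, with a gap of 2.03, read 41.1 and 20.8 RPKM in instar 1 larvae, 26.3 and 29.9 RPKM in workers, 4.33 and 3.59 RPKM in embryos and 2.18 and 1.04 RPKM in late pupae. Just outside, HSALG029729.1 had a gap of 1.98, with 3.62 and 7.93 RPKM in instar 1 larvae, 58.2 and 71.5 RPKM in workers, 0 RPKM in both embryo libraries, and 0.168 and 0 RPKM in late pupae. HSALG005991.2 had a gap of 1.93, with 93.4 and 41.2 RPKM in instar 1 larvae, 43.4 and 41.5 RPKM in workers, 4.80 and 9.02 RPKM in embryos and 10.05 and 6.95 RPKM in late pupae. Among HSALG identifiers, 110 had a gap of at least 1 and 24 a gap of at least 3, before the clause on single groups.

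Workers and instar 1 larvae held most members at like levels, which the rule favoured, so the difference between them is a description. The worker mean was higher for 20 of the 33 genes, and the difference of log2 means ran from -1.84 to 2.99 with a median of 0.13, against -0.04 over all genes tested. The means lay within 1 log2 unit of each other for 19 genes. Workers were higher by at least 1 for 8 genes and instar 1 larvae for 6. No count over all genes tested was made at these sizes, so it cannot be read from them whether members were more alike than other genes. The libraries of the pair of groups did not overlap for 14 genes higher in workers and 6 higher in instar 1 larvae, or 42.4% and 18.2% of members, against 32.5% and 37.6% of all genes tested.

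The genes farthest toward workers were HSALG007502.2 and HSALG020826.1. HSALG007502.2 read 24.0 and 26.4 RPKM in instar 1 larvae and 242 and 178 RPKM in workers, a difference of 2.99 on the log2 scale. HSALG020826.1 read 52.0 and 115 RPKM in instar 1 larvae and 468 and 248 RPKM in workers, a difference of 2.12. The worker libraries of both genes lay above both instar 1 libraries. The genes farthest toward instar 1 larvae were HSALG011742.2 and HSALG006531.1. HSALG011742.2 read 179 and 184 RPKM in instar 1 larvae and 49.1 and 50.6 RPKM in workers, a difference of -1.84. HSALG006531.1 read 165 and 92.0 RPKM in instar 1 larvae and 33.8 and 38.8 RPKM in workers, a difference of -1.74. These groups did not overlap either.

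The instar 4 larva and male libraries did not enter the gap of 2 and were placed against the range of the libraries that did. The clause on single groups kept out genes with a lead in either. Its drops through instar 1 larvae and workers also used these libraries, so the counts of high libraries are not free of the rule. A library was called high when it reached the lowest instar 1 larva or worker library of that gene, and low when it did not exceed the highest embryo or late pupa library. Instar 4 larva replicate 1 was high for 9 genes and low for 4, and replicate 2 was high for 9 and low for 3. Male replicate 1 was high for 15 genes and low for 4, and male replicate 2 was high for 15 and low for 7. The rest lay in between, so most members stood at an intermediate level in instar 4 larvae. More of them reached the high range in males than in instar 4 larvae, in RPKM without further scaling. On that scale 51.2% of all genes tested had both male libraries above both instar 4 libraries, and 21.9% had both below.

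**Figure D3:**
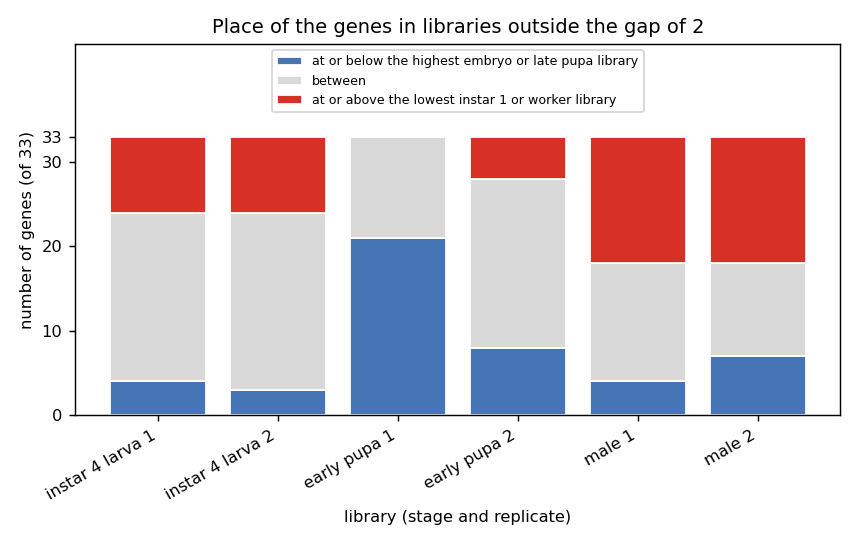
Number of the 33 genes in the low range, in between or in the high range in each library of instar 4 larvae, early pupae and males. High counts were 9 and 9 in instar 4 larvae, 0 and 5 in early pupae and 15 and 15 in males.

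The genes high in instar 4 larvae and those high in males overlapped in part. Both instar 4 libraries were high for 7 genes, both were low for 3, both lay in between for 18, and they fell in different ranges for 5. Both male libraries were high for 12 genes, both were low for 4, both lay in between for 8, and they differed for 9. Only 3 genes, HSALG010514.2, HSALG007502.2 and HSALG004608.1, were high in all 4 of these libraries, 3 of the 7 and 3 of the 12, and no gene was low in all 4. HSALG006531.1 was high in both instar 4 libraries and low in both male libraries. HSALG011742.2 was the reverse, low in both instar 4 libraries and high in both male libraries. These genes, and the others listed by range or by call below, are named because of their values.

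Along larval growth, the instar 4 mean lay below the instar 1 mean by at least 1 log2 unit for 20 genes and above it by at least 1 for 4. That difference ran from -6.53 to 1.92 with a median of -1.58. Males lay below workers by at least 1 log2 unit for 16 genes and above them by at least 1 for 3, and that difference ran from -9.65 to 2.06 with a median of -0.74. Both are given without a test, because instar 1 larvae and workers chose the genes, and that choice favours lower levels elsewhere. The counts at that size were not made over all genes tested. The median log2(RPKM + 1) of all genes tested was 2.53 and 2.08 in instar 1 larvae and 1.96 and 1.88 in instar 4 larvae. It was 2.22 and 2.46 in workers and 2.52 and 2.18 in males.

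Males and instar 4 larvae entered the choice of genes only through the clause on single groups. It removed 2 genes through instar 4 larvae and 0 through males. Its drops through instar 1 larvae and workers also required lower levels in males and instar 4 larvae. HSALG011742.2, HSALG005735.2, HSALG020826.1 and HSALG022226.1 escaped those drops only through their male libraries. The share of members that rose is thus not free of the rule. Males and instar 4 larvae were compared with limma on log2(RPKM + 1) over all genes tested, with Benjamini-Hochberg adjustment and a threshold of 0.05. The instar 1 and worker genes split in both directions. Of the 33 genes, 11 rose from instar 4 larvae to males, or 33.3% of them, against 20.4% of all genes tested. Another 6 genes fell, or 18.2%, against 4.35% of all genes tested. The remaining 16 did not pass, with differences from -3.94 to 2.22. The median difference was 0.47 for the members and 0.39 for all genes tested. These medians were -0.43 and -0.01 under quantile scaling, -0.20 and 0.22 without male replicate 1, and 0.92 and 0.52 without male replicate 2.

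The split depended on scaling, and the larger share of reads held by a few genes in the instar 4 libraries moved with this comparison, since the 10 most abundant genes held 60.5% and 61.5% there and 9.3% and 17.8% in males. Its part in the result was not tested. Scaling each library to its median gave 9 members higher and 8 lower, and over all genes it turned 2533 higher and 540 lower into 2019 and 1770. Quantile scaling gave 8 and 8 members, and 1709 and 1725 over all genes. The count of members that fell was 2 without instar 4 larva replicate 2, 3 without either male library and 10 without either early pupa library. With all dropped genes put back, 12 of 45 rose and 8 fell. The 2 genes dropped through instar 4 larvae lay lower in males by the terms of the clause, so their direction was fixed.

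**Figure D4:**
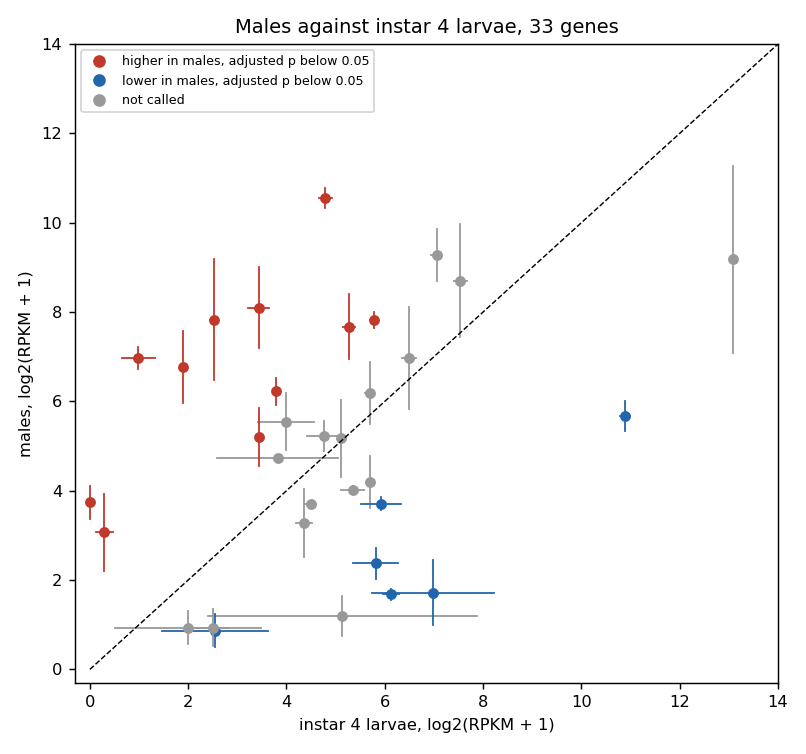
Mean log2(RPKM + 1) of the 2 male libraries (vertical axis) against the mean of the 2 instar 4 larva libraries (horizontal axis) for the 33 genes, with lines joining the 2 replicates in each direction and a dashed line of equality. Red marks the 11 genes higher in males, blue the 6 lower and grey the 16 that did not pass.

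Among the genes that rose, HSALG011742.2 moved farthest. It read 1.5 and 0.570 RPKM in the instar 4 larva libraries and 104 and 148 RPKM in the male libraries. Both male values were far above both instar 4 values, and they lay between its worker and instar 1 levels. The means were 126 ± 30.9 RPKM in males and 1.04 ± 0.659 RPKM in instar 4 larvae (SD, n = 2 each), a log2 difference of 5.98 ± 0.43 (SE; limma, adjusted p = 5.93e-06). HSALG005735.2, whose libraries are given above, averaged 1511 ± 327 RPKM in males and 26.7 ± 3.61 RPKM in instar 4 larvae (SD, n = 2 each). Its log2 difference was 5.76 ± 0.98 (SE; limma, adjusted p = 0.00193). Both calls held under every one of the 26 alternatives run. With low male levels, however, both genes would have been dropped through instar 1 larvae, so their rise is not free of the rule.

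Other genes that rose had male replicates far apart from each other. HSALG020826.1 read 579.8 and 87.9 RPKM in males and 4.43 and 5.05 RPKM in instar 4 larvae, a log2 difference of 5.31 ± 0.73 (SE; limma, adjusted p = 0.000582). HSALG010081.2 read 191 and 61.3 RPKM in males and 2.77 and 2.63 RPKM in instar 4 larvae, a log2 difference of 4.89 ± 0.49 (SE; limma, adjusted p = 7.14e-05). For HSALG004803.1 the male libraries read 513 and 145 RPKM and the instar 4 libraries 11.5 and 8.32 RPKM, a log2 difference of 4.66 ± 0.58 (SE; limma, adjusted p = 0.000336). In each case male replicate 1 was the higher library and neither male library overlapped instar 4 larvae. HSALG010207.1 had 0 reads in both instar 4 larva libraries and 16.2 and 9.32 RPKM in males. The male mean of 12.8 RPKM was 102-fold a floor of 3 reads in 1 instar 4 library. HSALG010207.1 also stood at 20.6 and 16.5 RPKM in instar 1 larvae and 15.9 and 19.4 RPKM in workers. Its early pupa libraries read 0.0376 and 0 RPKM. It was thus at or near 0 from instar 4 through the late pupa and well above that in instar 1 larvae, workers and males.

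The remaining genes that rose were HSALG022226.1, HSALG006289.2, HSALG010999.2, HSALG010558.2 and HSALG008141.2. HSALG022226.1, with 12.6 and 13.2 RPKM in instar 4 larvae and 91.2 and 59.8 RPKM in males, had a log2 difference of 2.43. HSALG008141.2, with 10.3 and 9.49 RPKM in instar 4 larvae and 56.8 and 22.6 RPKM in males, had the lowest difference of the 11, 1.76. HSALG010999.2 and HSALG008141.2 lost the call under both scalings, and HSALG006289.2 lost it under quantile scaling. Leaving out 1 library of instar 4 larvae or males removed the call of HSALG010999.2, HSALG008141.2 and HSALG010558.2, with adjusted p of up to 0.0666, 0.198 and 0.108 in limma.

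Among the genes that fell, HSALG010224.2 and HSALG010895.2 moved farthest. HSALG010224.2 averaged 2.71 ± 2.45 RPKM in males and 174 ± 173 RPKM in instar 4 larvae (SD, n = 2 each), a log2 difference of -5.26 ± 0.90 (SE; limma, adjusted p = 0.00210). Its instar 4 libraries differed from each other, but the lower of them, at 52.4 RPKM, was still above both male libraries. HSALG010895.2 averaged 51.1 ± 16.8 RPKM in males and 1887 ± 191 RPKM in instar 4 larvae (SD, n = 2 each), a log2 difference of -5.21 ± 1.42 (SE; limma, adjusted p = 0.0210). The groups did not overlap, and the call was lost when any single library of either group was left out, with adjusted p of up to 0.114 in limma.

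HSALG006531.1 read 61.5 and 76.7 RPKM in instar 4 larvae and 2.5 and 1.94 RPKM in males, a log2 difference of -4.44 ± 0.87 (SE; limma, adjusted p = 0.00435). With low instar 4 levels HSALG006531.1 would have been dropped through instar 1 larvae, so its fall is not free of the rule. HSALG028645.1 read 40.1 and 76.6 RPKM in instar 4 larvae and 3.08 and 5.56 RPKM in males, a log2 difference of -3.45 ± 0.80 (SE; limma, adjusted p = 0.00994). Replicates of both genes lay close in males, and neither group overlapped the other. HSALG004608.1 and HSALG006013.2 passed narrowly, at adjusted p of 0.0429 and 0.0485 in limma, and lost the call in 14 and 15 of 26 alternatives. HSALG028645.1 lost it without instar 4 larva replicate 2 or male replicate 1, with adjusted p of up to 0.0875 in limma.

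Whether or not they passed, 13 members had both male libraries above both instar 4 libraries and 13 had both below, or 39.4% each, against 51.2% and 21.9% of all genes tested. Differences of at least 2 log2 units were found for 11 members higher in males and 7 lower, or 33.3% and 21.2%, against 9.03% and 2.43% of all genes tested. Of the 16 genes that did not pass, 3 differed by at least 2 log2 units. HSALG005185.1, the most abundant member, read 8677 and 8602 RPKM in instar 4 larvae and 2476 and 135 RPKM in males, with adjusted p = 0.0828 in limma. Its log2 difference of -3.89 became -5.98 without male replicate 1 (limma, adjusted p = 0.0372) and -1.80 without male replicate 2 (adjusted p = 0.488). For HSALG013889.2 the log2 difference was -3.94 (limma, adjusted p = 0.0634). It became -6.68 without instar 4 larva replicate 1 (adjusted p = 0.00447) and -1.205 without instar 4 larva replicate 2 (adjusted p = 0.525). HSALG006190.2 read 122 and 142 RPKM in instar 4 larvae and 931 and 412 RPKM in males, with adjusted p = 0.0568 in limma, and from 0.00470 to 0.441 over its alternatives.

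The genes not yet described filled the space between these patterns. HSALG001047.2 had like levels in the larval stages sequenced, with 54.9 and 55.0 RPKM in instar 1 larvae and 52.1 and 50.0 RPKM in instar 4 larvae. It read 25.1 and 22.4 RPKM in workers, 11.3 and 26.5 RPKM in males and 1.2 and 13.9 RPKM in early pupae. HSALG010795.2 was level into the early pupa, with 32.8 and 34.0 RPKM in instar 4 larvae, 32.8 and 21.1 RPKM in early pupae and 6.07 and 5.40 RPKM in late pupae. For both genes the instar 4 libraries lay close together, and for HSALG010795.2 the higher early pupa library was replicate 1. HSALG006656.2 was uneven between replicates, with 340 and 73.6 RPKM in workers, 9.88 and 129 RPKM in early pupae and 29.1 and 71.4 RPKM in males. HSALG005972.2 read 35.1 and 36.2 RPKM in instar 1 larvae and 36.4 and 44.2 RPKM in workers, but 3.48 and 6.15 RPKM in instar 4 larvae and 1.54 and 0.438 RPKM in males. The high level of this gene was thus seen in the libraries that chose it and in no other library. HSALG007871.2, HSALG006020.2 and HSALG027849.1 read 17.4 to 46.6 RPKM in instar 4 larvae and 4.72 to 46.2 RPKM in males.

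The early pupa libraries disagreed with each other over these genes. Early pupa replicate 1 was low for 21 of the 33 genes and high for 0, while replicate 2 was low for 8 and high for 5. Replicate 2 exceeded replicate 1 for 25 genes, by at least 1 log2 unit for 20, and the reverse by at least 1 held for 2 genes. The median of replicate 2 minus replicate 1 was 1.55 for the members and -0.55 for all genes tested. The instar 1 and worker genes therefore stood on the opposite side of the replicate difference from the typical gene. Replicate 2 was nearer to the instar 4 mean than to the late pupa mean for 23 of 33 members, and for 62.4% of all genes tested. Replicate 1 was nearer to the instar 4 mean for 6 of 33 members, and for 20.4% of all genes tested.

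**Figure D5:**
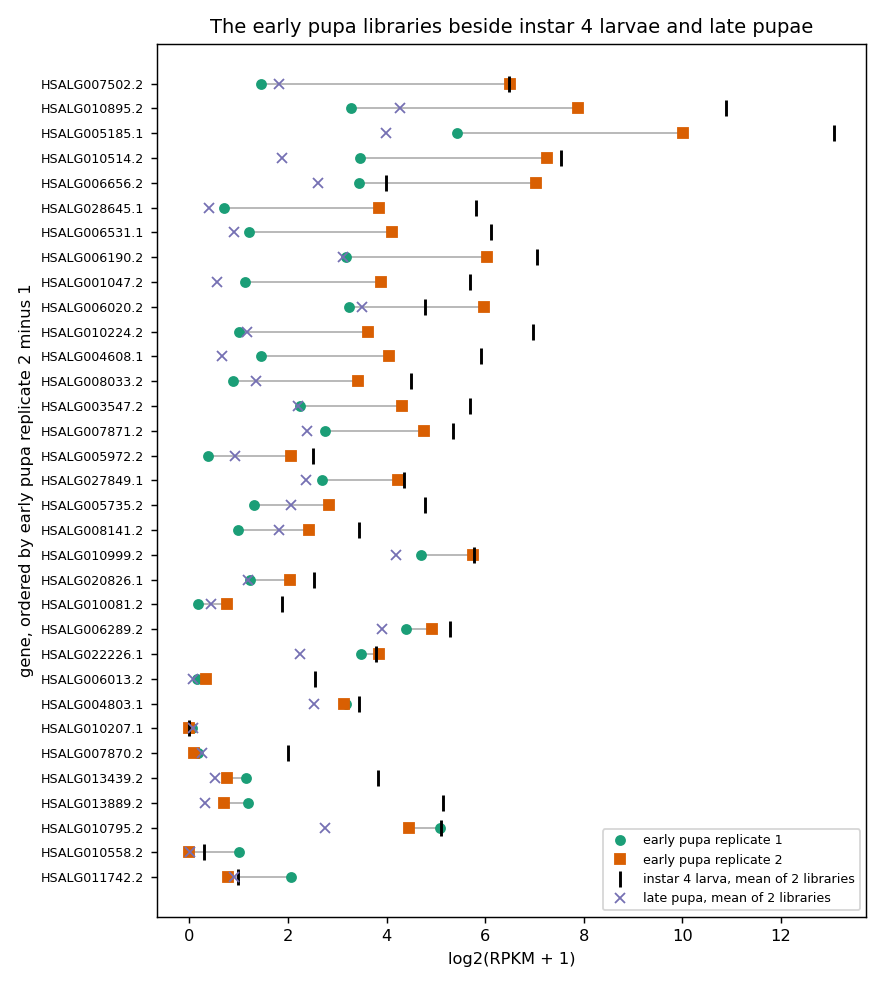
Level of each of the 33 genes as log2(RPKM + 1) in early pupa replicate 1 (circles) and replicate 2 (squares), with the mean of instar 4 larvae (bars) and of late pupae (crosses), ordered by the difference between the early pupa replicates. For most genes the circle lies near the cross and the square lies toward the bar, with replicate 2 higher by at least 1 log2 unit for 20 genes.

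HSALG007502.2 and HSALG010895.2 differed most between the early pupa libraries. HSALG007502.2 read 1.74 RPKM in replicate 1 and 89.2 RPKM in replicate 2, a difference of 5.04 on the log2 scale. Replicate 2 lay within the values of 97.7 and 80.9 RPKM in instar 4 larvae, and replicate 1 lay within the values of 3.77 and 1.59 RPKM in late pupae. HSALG010895.2 read 8.66 and 236 RPKM, a difference of 4.62, and replicate 2 was well below the instar 4 libraries. HSALG010514.2 came near the first pattern, with 9.98 and 151 RPKM in early pupae, 168 and 204 RPKM in instar 4 larvae and 5.89 and 0.976 RPKM in late pupae. In HSALG013889.2, HSALG013439.2 and HSALG006013.2, by contrast, the early pupa libraries lay within 1 log2 unit of each other and below both instar 4 libraries. The larger share of the 10 most abundant genes in replicate 2 moved with these differences, and its part in them was not tested.

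Early pupae were compared with instar 4 larvae in the same limma fit, which shares the instar 4 libraries with the comparison above. HSALG006531.1 and HSALG001047.2 escaped a drop through instar 1 larvae only through their instar 4 libraries, so the counts here are not free of the rule. The difference was negative for 29 of the 33 genes, with a median of -1.87 for the members and 0.45 for all genes tested. The median was -2.46 without early pupa replicate 2 and -1.01 without replicate 1, against 0.71 and 0.17 over all genes tested. Both early pupa libraries lay below both instar 4 libraries for 24 members, or 72.7%, against 8.12% of all genes tested, and above them for 0, against 50.3%. The mean was lower by at least 2 log2 units for 16 members, or 48.5%, against 1.43% of all genes tested, and higher by that much for 0, against 3.25%.

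In that fit 0 members rose, against 0.258% of all genes tested, and 1 member fell, against 0.37% of all genes tested. Limma at an unadjusted p under 0.05 gave 0 members higher and 18 lower, and limma-voom on resolved reads gave the same 0 and 18. No count over all genes tested was made at that threshold, so no excess can be read from the 18. Limma-voom called 0 members after adjustment. Without early pupa replicate 2 the fit called 18 members lower, and over all genes 2674 higher and 502 lower, with the single remaining early pupa library assumed to vary like the other groups. With the genes dropped by the clause put back, 2 of them dropped for high instar 4 levels, 7 of 45 fell. Without replicate 1 the fit called 0, and without instar 4 larva replicate 1 it called 4. Leaving out any one of the other libraries, apart from these, also gave 0 members lower. The gene that fell was HSALG010224.2, at 6.2 ± 7.34 RPKM in early pupae and 174 ± 173 RPKM in instar 4 larvae (SD, n = 2 each). Its log2 difference was -4.66 ± 0.90 (SE; limma, adjusted p = 0.0485), and the call was lost in 20 of 25 alternatives, with adjusted p from 0.00095 to 0.526. HSALG005185.1 and HSALG010895.2 had larger differences, -5.35 ± 1.52 and -5.30 ± 1.42 (SE), and did not pass, at adjusted p of 0.170 and 0.153 in limma.

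Differences between replicates were larger for the members than for the typical gene in most groups. The median gap between replicates on the log2 scale was 0.85 in instar 1 larvae against 0.44 over all genes tested, 0.89 against 0.42 in males and 1.55 against 0.68 in early pupae. It was 0.58 against 0.49 in embryos, 0.28 against 0.18 in instar 4 larvae, 0.32 against 0.31 in late pupae and 0.27 against 0.23 in workers. Workers and instar 4 larvae thus gave the closest replicates and early pupae the widest.

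Instar 4 larvae held a set of 5 members that were at least 2 log2 units higher in replicate 2, namely HSALG006013.2, HSALG007870.2, HSALG010224.2, HSALG013439.2 and HSALG013889.2. Only 22 of all genes tested, or 0.177%, differed that much in that direction. HSALG006013.2 read 1.77 and 11.3 RPKM there, against 110 and 142 RPKM in instar 1 larvae and 234 and 296 RPKM in workers. HSALG007870.2 read 0.425 and 10.2 RPKM, and HSALG013439.2 read 5.02 and 32.2 RPKM. All 5 stood below both instar 1 libraries in both instar 4 libraries. In embryos, 7 members were at least 2 log2 units higher in replicate 2, and 2.9% of all genes tested differed that much in that direction. In males, 4 members were at least 2 log2 units higher in replicate 1: HSALG005185.1, HSALG007502.2, HSALG010514.2 and HSALG020826.1. That direction and size held for 0.765% of all genes tested. Whether these replicates differed in age or in feeding was not given in the labels.

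The lengths resolved from the RPKM values ran from 222 to 4155 bases in the members with a median of 1137. The median was 1032 bases over the HSALG genes tested, so the members were of ordinary length. The length was a multiple of 3, as coding lengths are, for 32 of the 33 members. That held for 97.9% of HSALG genes with reads in 8 or more libraries. The step that resolved the lengths assumed that most are multiples of 3, so these shares are not independent of it. The shortest was HSALG020826.1 and the longest HSALG006013.2, and a low RPKM in the shortest gene rests on fewer reads than the same RPKM in a longer one.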

How the data were processed

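The deposited values are RPKM, which the authors computed for 20755 gene models in 14 libraries. Per the submitters' processing notes, the tools included STAR 2.5.0b and DESeq2, without a role for either. Which counter, genome build and gene lengths went into RPKM is not given in the sources used here. Identifiers matched 0 of the 14329 genes of the reference table, so no sequence or name is printed.

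Groups came from the sample labels. Members were found by the rule on log2(RPKM + 1). The members, lists and tests were chosen with earlier results of these data known. Whole reads were resolved from RPKM with 1 whole-number length per gene, within a relative tolerance of 1e-05, for 18541 of 18543 genes above 0, or 99.99%; this gave gene reads of 4255302 to 14139959 per library, or 31.5% to 55.0% of the library denominators. Reads carry no molecular identifiers, so the floor of 3 reads covers counting error only. Tests used limma 3.58.1 in R 4.3.3 on log2(RPKM + 1) with an intensity trend over all 14 libraries, for the 12421 genes that reached 1 RPKM in 2 or more libraries, two-sided, with Benjamini-Hochberg adjustment over all of them. A fold change on this scale understates the change of low genes. The scripts were tested on simulated data.

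Genes are named in the text by level, width of the gap, nearness to the threshold, difference between workers and instar 1 larvae, size of a called difference among genes of at least 2-fold change and 10 RPKM, and replicate difference in early pupae; other genes are named because of their values. Over 21 pairs of groups, deviations of libraries with the same replicate number correlated between -0.26 and 0.15, so numbers were not taken as pairs. Alternatives were another pseudocount, other filters, median and quantile scaling, no trend, fewer libraries, a replicate block, library weights, other gaps, each library left out, and, chosen after seeing the data, limma-voom on resolved reads and all 45 genes without the dropping clause. Comparisons that involve the groups behind the gap were described without a test.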

Additional observations from a re-analysis of the deposited data

How the results depend on the processing

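Members that rose in males numbered 9 to 12 with 1 library left out, against 11. Members that fell in males, 6, numbered 2 to 10 with 1 library left out, 10 with library weights and 10 without both early pupa libraries. The median difference of males minus instar 4 larvae, 0.47, became -0.0794 under median scaling and -0.43 under quantile scaling, and ran from -0.20 without male replicate 1 to 0.92 without male replicate 2. Members that fell in early pupae, 1, numbered 2 with log2(RPKM + 0.1), 0 with no filter, no trend, only the 4 libraries compared, library weights or limma-voom, 7 of 45 without the dropping clause, and 0 to 18 with 1 library left out. With the replicate block, 11 members rose and 5 fell in males, and 0 fell in early pupae; the numbers share only a label.

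The rule itself, against 33 genes in the main setting, gave 51 under median scaling and 29 under quantile scaling. A gap of 1 gave 90, a gap of 3 gave 14, and leaving 1 library out gave 30 to 53. Of the 33 members, 31 stayed under median scaling, 24 under quantile scaling and 27 without instar 1 larva replicate 2. Among named genes, HSALG003547.2 turned from higher to lower in males under median scaling (-0.0509) and quantile scaling (-0.43), and ran from -0.20 without male replicate 1 to 1.198 without male replicate 2. HSALG007502.2 did so at -0.0794 and -0.55, and ran from -0.67 to 1.62 without the same libraries. In early pupae HSALG007502.2 ran from -5.04 without early pupa replicate 2 to 0.0046 without replicate 1. HSALG011742.2 turned at -0.13 under quantile scaling and ran from -0.19 without early pupa replicate 1 to 1.07 without replicate 2. None of these had passed the test. The causes were not tested. With 2 libraries a group, and an unknown source of the replicates, calls near the threshold rest on single libraries.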

Other observations

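The 12 genes that met the gap but were dropped for a lead in 1 group held some of the highest levels among all 45. HSALG004217.2, dropped through workers, had a gap of 10.15 on the log2 scale. It read 2562 and 3857 RPKM in instar 1 larvae and 10461 and 13896 RPKM in workers, against 1.03 and 0.735 RPKM in embryos and 1.26 and 0.667 RPKM in late pupae. Its male libraries read 565 and 383 RPKM, and its instar 4 larva libraries 118 and 1094 RPKM. HSALG004400.2, dropped through instar 1 larvae, read 10153 and 22635 RPKM there and 684 and 790 RPKM in workers. Its early pupa libraries read 7.06 and 1200.1 RPKM, which is the direction in which most members differed between those libraries. HSALG009131.1, dropped through instar 4 larvae, read 223 and 161 RPKM there and 0.567 and 226 RPKM in early pupae. Its late pupa libraries read 2.03 and 0.580 RPKM.

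Several genes dropped through workers also differed between the instar 4 larva libraries, in the same direction as the 5 members described above. HSALG000628.2 read 24.3 and 254 RPKM there, HSALG021057.1 read 52.7 and 276 RPKM, and HSALG023801.1 read 31.5 and 196 RPKM. HSALG005182.1, also dropped through workers, went the other way at 288 and 218 RPKM. These genes were picked after their values were seen and are given as values only. Among the 438 XLOC loci, 0 met the gap of 2.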
